A study of Rattus norvegicus with 31 samples.

Results

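Thyroid hormone handling and response in the liver of pesticide-treated rats was followed through 7 genes: Dio1, Ttr, Serpina7, Slc16a10, Thra, Thrb and Klf9. They were chosen by name, as rows of the gene table that carry these symbols. Of the 7 genes, 6 had a row and are described here, out of 26312 rows in all, and all 6 were among the 19904 genes tested. Dio1, the deiodinase of liver and kidney that turns the prohormone T4 into the active hormone T3, had no row of that name and is not analysed here.

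Thyroid hormone travels in blood bound to carrier proteins made by the liver. Ttr encodes transthyretin and Serpina7 encodes thyroxine-binding globulin, both secreted by hepatocytes. The hormones cross cell membranes on transporters, and Slc16a10 (MCT10, also called TAT1) carries T3, T4 and aromatic amino acids. Inside the nucleus they bind the receptors encoded by Thra and Thrb, of which Thrb is the main form in hepatocytes, and these receptors pair with RXR and recruit co-repressors or co-activators. Klf9 encodes a zinc-finger transcription factor that T3 induces directly and that glucocorticoids and the circadian clock also drive. The liver clears thyroid hormone by deiodination, by conjugation to glucuronic acid or sulfate, and by excretion into bile, and inducers of the nuclear receptors CAR and PXR are known to raise several of the enzymes and pumps involved.

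Total RNA was sequenced from the livers of 31 female Wistar rats (Crl:WI) after 28 days of daily gavage. The 8 control rats received the vehicle alone, 0.5% carboxymethyl-cellulose in water, which the treated rats received as well. Single compounds were thiacloprid (THI) at 108 mg/kg bw/day in 4 rats, imazalil (IMZ) at 93 mg/kg bw/day in 4 rats and clothianidin (CTD) at 288 mg/kg bw/day in 3 rats. THI and CTD are neonicotinoid insecticides and IMZ is an azole fungicide. Each binary mixture was given to 4 rats: THI + IMZ at 54 and 46 mg/kg bw/day, THI + CTD at 54 and 134 mg/kg bw/day, and IMZ + CTD at 46 and 135 mg/kg bw/day. The CTD group held fewer rats because, by the study's dosing scheme, animals at that dose were killed in moribund condition. Each library came from 1 rat.

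The libraries held 31.8 to 101 M counts, where M stands for 1000000, with a median of 41.0 M. Control libraries were deeper, with a median of 60.5 M (32.7 to 101 M) against 40.2 M (31.8 to 54.8 M) in treated rats. Of 13 hepatocyte markers, none was called in THI, IMZ, CTD or IMZ + CTD against control, 1 rose in THI + IMZ and 2 fell in THI + CTD. An unadjusted p under 0.05 was found for 8 of 13 in IMZ, 6 of 13 in THI + CTD and 1 to 3 in each other group. Their median log2 fold change was -0.22 in IMZ and -0.26 in THI + CTD (-0.02 and -0.03 over all genes tested). The summed level of the 13 markers was 187776 to 282315 CPM (counts per M of TMM-scaled counts) over all rats. Other gene groups moved with the treatments. Of all genes tested, 0.543% were called against control in THI, 0.251% in IMZ and 12.7% in CTD. In the mixtures the share was 1.18% in THI + IMZ, 4.39% in THI + CTD and 1.46% in IMZ + CTD. Of 18 target genes of CAR and PXR, between 6 (IMZ + CTD) and 13 (THI + CTD) rose and none fell. Of 20 cell division genes, 20 rose in CTD, 19 in THI + CTD, 19 in IMZ + CTD, 12 in THI + IMZ and none in THI or IMZ. In IMZ the median log2 fold change of these genes was 1.30 with 18 of 20 at an unadjusted p under 0.05, against 0.02 and 0 of 20 in THI. Of 12 Kupffer cell and macrophage markers, 5 fell in CTD and 5 in THI + CTD, and of 10 sinusoidal endothelial markers 3 fell in CTD and 2 in THI + CTD. Of 6 red blood cell markers, 5 rose in CTD and 1, Slc4a1, fell. The part of these shifts in the values of the thyroid hormone genes was not tested. In whole liver, fewer cells of a type and less RNA per cell cannot be told apart.

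Promoter windows of the 3 genes with a called difference in at least 1 comparison are shown so that the regions upstream of them can be read beside the values. Each runs from 250 bases before to 50 after the start of transcription that RefSeq gives in build GRCr8, on the strand of the gene. Capitals mark matches to AGGTCA, the half-site that thyroid hormone receptors and related nuclear receptors bind, and to TATAAA, on either strand.
Slc16a10, chr20:45122309-45122608, minus strand: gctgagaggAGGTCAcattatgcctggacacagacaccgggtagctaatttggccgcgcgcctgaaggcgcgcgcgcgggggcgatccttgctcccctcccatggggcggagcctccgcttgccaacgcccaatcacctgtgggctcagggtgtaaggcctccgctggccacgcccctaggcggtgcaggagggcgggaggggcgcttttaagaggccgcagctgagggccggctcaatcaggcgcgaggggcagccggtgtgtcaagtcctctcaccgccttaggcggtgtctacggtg
Thrb, chr15:10461397-10461696, minus strand: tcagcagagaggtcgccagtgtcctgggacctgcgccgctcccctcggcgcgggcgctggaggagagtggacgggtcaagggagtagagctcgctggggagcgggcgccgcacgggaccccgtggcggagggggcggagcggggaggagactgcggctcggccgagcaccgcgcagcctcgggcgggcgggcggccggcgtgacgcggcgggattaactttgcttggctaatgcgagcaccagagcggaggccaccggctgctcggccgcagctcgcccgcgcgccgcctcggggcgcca
Serpina7, chrX:107457632-107457931, minus strand: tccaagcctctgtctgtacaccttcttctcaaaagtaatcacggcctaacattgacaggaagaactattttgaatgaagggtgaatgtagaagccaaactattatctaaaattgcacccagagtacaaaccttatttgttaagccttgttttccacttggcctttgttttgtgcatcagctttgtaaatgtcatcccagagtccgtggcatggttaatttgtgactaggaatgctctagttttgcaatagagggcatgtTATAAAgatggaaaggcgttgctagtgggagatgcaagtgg
The Slc16a10 window held AGGTCA once, 241 bases before the start, and 16.2% of 33469 windows of this length hold that motif. The Serpina7 window held TATAAA once, 9 bases after the start, as 14.2% of windows do. The windows of Ttr, Thra, Thrb and Klf9 held none of the motifs searched. A pair of AGGTCA copies with 4 bases between, which 2 of all windows hold, CACGTG (6.42% of windows) and TTATGTAA (0.893%) had no match in the window of any of the 6 genes. The Slc16a10 and Thrb windows were rich in G and C, at 67.7% and 76% against a median of 51.7% over all windows, with 26 and 43 CG pairs. The Serpina7 window had 41% and 3 CG pairs.

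Slc16a10 was the gene with the clearest change: its transcripts were down-regulated in CTD, in THI + CTD and in IMZ. Thrb was down-regulated in CTD. No other member was called against control by this edgeR test, while DESeq2 called Ttr higher in THI + CTD and IMZ + CTD, and edgeR with the filterByExpr filter called it in THI + CTD. A gene was called where the adjusted p (edgeR quasi-likelihood test, Benjamini-Hochberg over all genes tested) was under 0.05. Against control, 0 of 6 members were called in THI, where 0.543% of all genes tested were called. In IMZ 1 of 6 was called (0.251% of all genes), in CTD 2 of 6 (12.7%), in THI + IMZ 0 of 6 (1.18%), in THI + CTD 1 of 6 (4.39%) and in IMZ + CTD 0 of 6 (1.46%). At an unadjusted p under 0.05, the members numbered 1 in THI (8.68% of all genes tested), 3 in IMZ (8.08%) and 2 in CTD (25.2%). They numbered 2 in THI + IMZ (11.1%), 2 in THI + CTD (17.6%) and 5 in IMZ + CTD (12.8%). The median log2 fold change of the members was -0.24 in CTD and -0.18 in THI + CTD, where that of all genes tested was -0.07 and -0.03. The 6 comparisons share the 8 control rats.

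**Figure D1:**
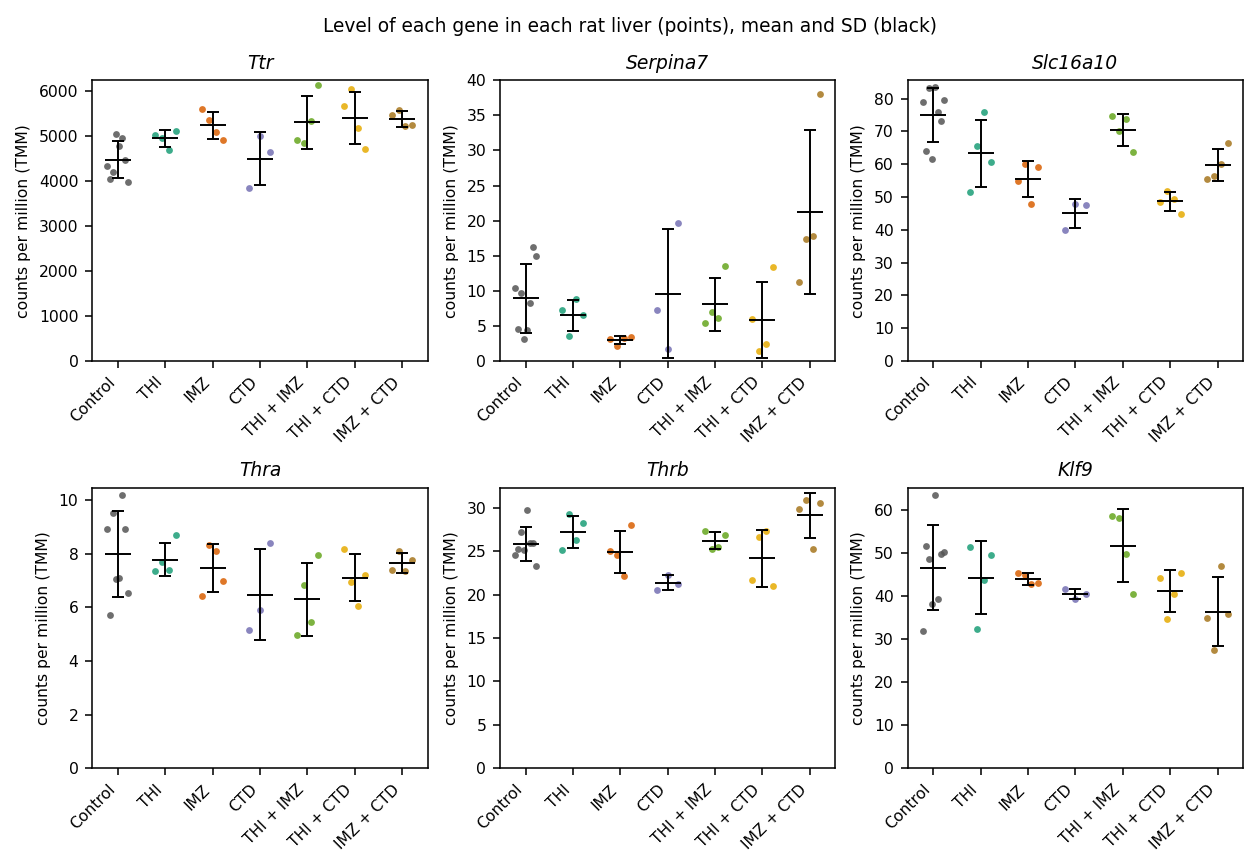
Level of each gene in CPM (y axis, from 0) in each of the 31 rats (points) by group (x axis), with the mean (horizontal bar) and SD (error bar). For Slc16a10, all rats of IMZ, CTD and THI + CTD lie below the lowest control at 61.5 CPM, while Serpina7 spreads from 1.49 to 38.1 CPM.

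**Figure D2:**
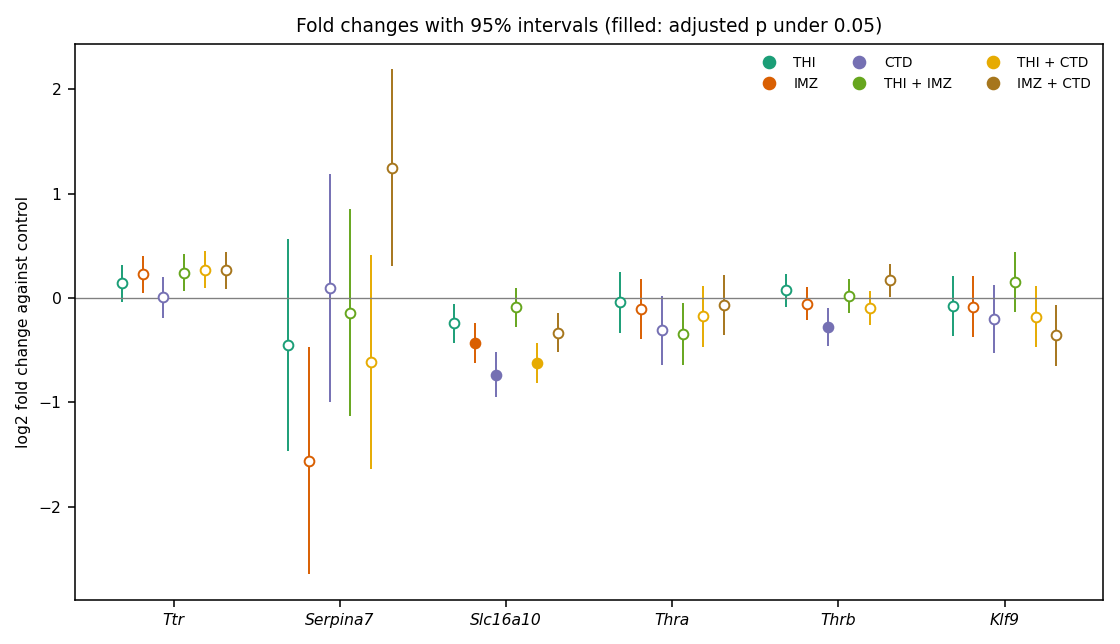
Log2 fold change of each gene against control (y axis) in the 6 treated groups (colours), with the 95% interval as a vertical line. Filled points are called by edgeR (adjusted p under 0.05): Slc16a10 in IMZ, CTD and THI + CTD, and Thrb in CTD.

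Ttr, the transthyretin gene (ENSRNOG00000016275), was the carrier with little spread. Control livers held 3974 to 5056 CPM with a median of 4408 CPM. The IMZ + CTD rats had 5484, 5587, 5230 and 5257 CPM, and the THI + CTD rats 5677, 6053, 5182 and 4719 CPM. All 4 IMZ + CTD rats and 3 of 4 THI + CTD rats were above every control. The fold change was 1.20 in IMZ + CTD (log2 0.27 ± 0.09 SE, adjusted p = 0.13 by edgeR) and 1.21 in THI + CTD (log2 0.27 ± 0.09, adjusted p = 0.0684), so neither was called. DESeq2 called both, at adjusted p = 0.0252 and 0.0137. In THI + CTD, edgeR also called it with a stricter filter on low counts (0.0386), and when Control replicate 4 (0.0441), THI + IMZ replicate 4 (0.0459) or THI + CTD replicate 4 (0.0384) was left out. The IMZ rats had 5601, 5375, 5102 and 4908 CPM and the THI + IMZ rats 4912, 4852, 5351 and 6134 CPM, with fold changes of 1.17 and 1.18 and adjusted p of 0.435 and 0.213. The CTD rats had 3845, 5000 and 4658 CPM, a log2 fold change of 0.01 with a 95% interval of -0.19 to 0.20. Each group of treated rats other than CTD lay wholly above the control median.

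Serpina7, the thyroxine-binding globulin gene (ENSRNOG00000011081), varied more between rats of the same group than any other member. Control rats ranged from 3.11 to 16.2 CPM with a median of 8.96 CPM, a coefficient of variation of 54.6%, on 149 to 1075 counts. The coefficient of variation in controls was 9.23% for Ttr, 7.45% for Thrb, 11.1% for Slc16a10, 20.0% for Thra and 21% for Klf9. The IMZ + CTD group had the highest mean, from rats at 11.3, 17.4, 17.8 and 38.1 CPM, and 3 of 4 were above every control. The IMZ group had the lowest mean, from rats at 3.11, 2.21, 3.31 and 3.46 CPM, all below the control median, with 2 of 4 below every control. Against control the fold change was 2.38 in IMZ + CTD (95% interval 1.24 to 4.57, adjusted p = 0.207) and 0.340 in IMZ (0.160 to 0.724, adjusted p = 0.330), and edgeR called neither. Without IMZ + CTD replicate 4 the log2 fold change in IMZ + CTD went from 1.25 to 0.80. CTD rats had 7.21, 1.78 and 19.7 CPM and THI + CTD rats 6.05, 1.49, 2.45 and 13.4 CPM. CTD thus spanned more than the controls on the CPM scale, and 1 CTD rat and 2 THI + CTD rats were below every control. Without CTD replicate 3, the rat at 19.7 CPM, the log2 fold change in CTD went from 0.10 to -0.99, still not called. THI rats had 7.25, 3.53, 8.82 and 6.55 CPM and THI + IMZ rats 5.43, 7.03, 6.17 and 13.6 CPM, with fold changes of 0.731 and 0.908 and intervals that included 1.

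Slc16a10 (ENSRNOG00000000588), the membrane transporter, was highest in controls, at 61.5 to 83.4 CPM with a median of 77.4 CPM. CTD rats had 40.0, 47.7 and 47.6 CPM, THI + CTD rats 48.5, 52.0, 49.5 and 44.9 CPM, and IMZ rats 54.9, 60.2, 48.0 and 59.1 CPM. None of these 11 rats reached the lowest control. Levels fell by 39.9% in CTD (log2 fold change -0.73 ± 0.11 SE, adjusted p = 1.38e-05), by 35.0% in THI + CTD (-0.62 ± 0.09, adjusted p = 0.000135) and by 25.9% in IMZ (-0.43 ± 0.09, adjusted p = 0.0331). The calls in CTD and THI + CTD held in each of 31 fits that left out 1 rat, with adjusted p of at most 0.00104 and 0.00103. The call in IMZ was lost without Control replicate 1 (adjusted p = 0.0512), 3 (0.0751), 5 (0.0765), 6 (0.0576), 7 (0.0521) or 8 (0.0665). It was also lost without IMZ replicate 1 (0.132), 3 (0.235) or 4 (0.0709), and in a fit of the IMZ and control rats alone (0.0514). IMZ + CTD rats had 55.6, 56.5, 60.2 and 66.4 CPM, 3 of 4 below every control, with a log2 fold change of -0.33 ± 0.09 that edgeR did not call (adjusted p = 0.0699). There DESeq2 gave 0.0244, and edgeR called it without Control replicate 2 (0.0386), Control replicate 4 (0.0284), THI replicate 1 (0.0473) or THI replicate 3 (0.0466). THI rats had 51.4, 65.5, 76.0 and 60.6 CPM (fold 0.845, 95% interval 0.742 to 0.964, adjusted p = 0.410). THI + IMZ rats, at 74.7, 70.1, 73.7 and 63.9 CPM, lay within the control range (fold 0.941, 0.826 to 1.07). In order of mean level the groups ran control, THI + IMZ, THI, IMZ + CTD, IMZ, THI + CTD and CTD. Of neighbours in that order, IMZ and THI + CTD differed by 6.84 CPM, more than the larger SD of 5.53 CPM, and the others by less than theirs.

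Thrb (ENSRNOG00000006649), the main hormone receptor of hepatocytes, was lowest in CTD. The 3 CTD rats had 20.6, 22.3 and 21.2 CPM against 23.3 to 29.7 CPM (median 25.5) in controls, with no overlap. The level fell by 17.4% (log2 fold change -0.28 ± 0.09 SE, adjusted p = 0.0358 by edgeR). The adjusted p passed 0.05 without Control replicate 3 (0.0638), 5 (0.0741), 6 (0.0520) or 7 (0.0546), and without CTD replicate 1 (0.155), 2 (0.0637) or 3 (0.0930), the log2 fold change staying between -0.31 and -0.24. THI + CTD rats fell into a low and a high pair, 21.7 and 21 CPM against 26.6 and 27.3 CPM, and IMZ rats had 25, 24.6, 22.1 and 28.0 CPM. IMZ + CTD rats had 29.9, 30.8, 25.2 and 30.5 CPM, 3 of 4 above every control (fold 1.13, 95% interval 1.01 to 1.26, adjusted p = 0.344). THI rats, at 25.2, 29.3, 26.2 and 28.2 CPM, and THI + IMZ rats, at 27.3, 25.2, 25.5 and 26.8 CPM, lay within the control range. Neighbours in the order of mean levels (IMZ + CTD, THI, THI + IMZ, control, IMZ, THI + CTD, CTD) differed by less than the larger SD of each pair.

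Thra (ENSRNOG00000009066), the second receptor gene, was counted 190 to 926 times per library. Controls ranged from 5.73 to 10.2 CPM with a median of 8.0 CPM. The lowest group means were those of THI + IMZ (4.97, 6.82, 5.47 and 7.96 CPM) and CTD (5.15, 5.89 and 8.40 CPM). Their log2 fold changes of -0.35 ± 0.14 and -0.31 ± 0.16 SE were not called by edgeR (adjusted p = 0.343 and 0.229). In CTD the call was made without CTD replicate 3 (-0.54, adjusted p = 0.0477). The remaining groups lay within the control range, from 6.07 to 8.69 CPM, with fold changes of 0.886 to 0.971. The 3′ end of Thra overlaps, on the opposite strand, that of Nr1d1, a repressor of the circadian clock, in the RefSeq annotation. The libraries were made with a stranded kit, but the strand setting of the counting is not given in the sources used here, so reads of the 2 genes may not be fully separated. Nr1d1 itself was counted 3 to 197 times per library, at 0.0775 to 4.16 CPM.

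Klf9 (ENSRNOG00000014215), the T3-induced transcription factor, ranged from 32.0 to 63.4 CPM in controls with a median of 49.2 CPM. The lowest levels were in IMZ + CTD, at 35.0, 27.5, 47.1 and 35.9 CPM, all below the control median and 1 of 4 below every control. The log2 fold change there was -0.36 ± 0.14 SE with an adjusted p of 0.269, so it was not called. In that group 5 of 10 clock genes that peak together with Dbp fell, among them Dbp (-1.09 ± 0.18, adjusted p = 0.000968), Per1 (-1.38 ± 0.27, 0.00493), Usp2 (-1.62 ± 0.36, 0.0146) and Hlf (-1.0 ± 0.24, 0.0211). Nr1d1, of the same list, stood at 2.07 ± 0.59 without being called (0.0760), with 3 of 4 rats above every control. Of 10 glucocorticoid-responsive genes, 3 fell in IMZ + CTD, namely Per1, Zbtb16 (-1.44 ± 0.29, 0.00646) and Tsc22d3 (-0.66 ± 0.16, 0.0288). Of the same 10, 6 fell in CTD, 3 in THI + CTD, 2 in THI, 1 in THI + IMZ and none in IMZ. Their median log2 fold change was -0.23 in IMZ + CTD and -0.15 in IMZ. It was -0.84 in CTD, -0.70 in THI + CTD, -0.42 in THI and -0.33 in THI + IMZ. Over all genes tested, 1.46% were called in IMZ + CTD, 12.7% in CTD and 4.39% in THI + CTD. The share was 0.543% in THI, 1.18% in THI + IMZ and 0.251% in IMZ. The part of the clock genes or of the glucocorticoid-responsive genes in the Klf9 level was not tested. CTD rats had 41.6, 39.4 and 40.6 CPM, IMZ rats 45.5, 45, 42.8 and 43.0 CPM and THI + CTD rats 44.2, 34.8, 40.4 and 45.5 CPM, within the control range and below its median. THI rats had 51.4, 32.5, 43.7 and 49.6 CPM and THI + IMZ rats 58.6, 58.2, 49.8 and 40.5 CPM. Across the 6 comparisons the fold change ran from 0.780 to 1.11, and only in IMZ + CTD did the 95% interval (0.636 to 0.957) leave out 1.

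The single compounds were then compared with each other, as 3 pairs at the doses given above, which are not equal in mg/kg, so that each difference belongs to these doses. Between THI and CTD, the 2 neonicotinoids, 2 of 6 members were called, where 6.62% of all genes were. Slc16a10 was 1.41-fold higher in THI than in CTD (log2 0.49 ± 0.12 SE, adjusted p = 0.00753 by edgeR), and all 4 THI rats exceeded all 3 CTD rats. Thrb was 1.27-fold higher in THI (log2 0.35 ± 0.10, adjusted p = 0.0266), again without overlap. The Slc16a10 call was lost without THI replicate 3 (0.0513) or CTD replicate 1 (0.0811) and in a fit of these 2 groups alone (0.0910). The Thrb call was lost without THI replicate 2 (0.0941) or 4 (0.0660), without CTD replicate 1 (0.124) or 3 (0.0660), in a fit of the 2 groups alone (0.109), and with all libraries thinned to the smallest total (0.0530). Between IMZ and CTD 0 of 6 members were called (4.67% of all genes). The closest were Slc16a10, 1.23-fold higher in IMZ (95% interval 1.05 to 1.45, adjusted p = 0.141), Thrb, 1.17-fold higher (1.02 to 1.34, 0.216), and Serpina7 at a fold of 0.318 (0.132 to 0.769, 0.132). Serpina7 was called there without CTD replicate 2 (0.0483). Between THI and IMZ 0 of 6 were called, as were 0.01% of all genes, and no member had an unadjusted p under 0.05. The widest interval was that of Serpina7, 0.933 to 4.95 for THI over IMZ.

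Each mixture held its 2 compounds at about 0.5 times their single doses, so its log2 fold change was set against a dose-weighted sum of those of the single compounds, each THI or IMZ value multiplied by 0.5 and each CTD value by 0.47. IMZ + CTD departed from its sum in 2 of 6 members, where 1.16% of all genes were called. Serpina7 stood at a log2 fold change of 1.25 against control where the sum was -0.73, a difference of 1.98 ± 0.48 SE (adjusted p = 0.0350 by edgeR). Thrb stood at 0.17 where the sum was -0.16, a difference of 0.33 ± 0.08 (adjusted p = 0.0350). In both genes the mixture lay above the control mean and the sum below it. The Serpina7 call was lost without IMZ replicate 1 (0.0540), 2 (0.0518), 3 (0.0527) or 4 (0.0512), CTD replicate 1 (0.0787) or 2 (0.0642), or IMZ + CTD replicate 2 (0.0726), 3 (0.0717) or 4 (0.190). The Thrb call was lost without IMZ replicate 3 (0.0706), CTD replicate 1 (0.0711) or IMZ + CTD replicate 1 (0.0698), 2 (0.139) or 4 (0.144). The difference stayed between 1.53 and 2.49 for Serpina7 and between 0.29 and 0.39 for Thrb. Slc16a10 stood at -0.33 where the sum was -0.56, a difference that was not called (adjusted p = 0.234). THI + IMZ departed from its sum in 0 of 6 members (0.0151% of all genes) and THI + CTD in 0 of 6 (0.286%). In THI + IMZ the Slc16a10 level was 1.19-fold its sum (95% interval 1.05 to 1.35, adjusted p = 0.574), and in THI + CTD it was 0.897-fold (0.786 to 1.02).

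**Figure D3:**
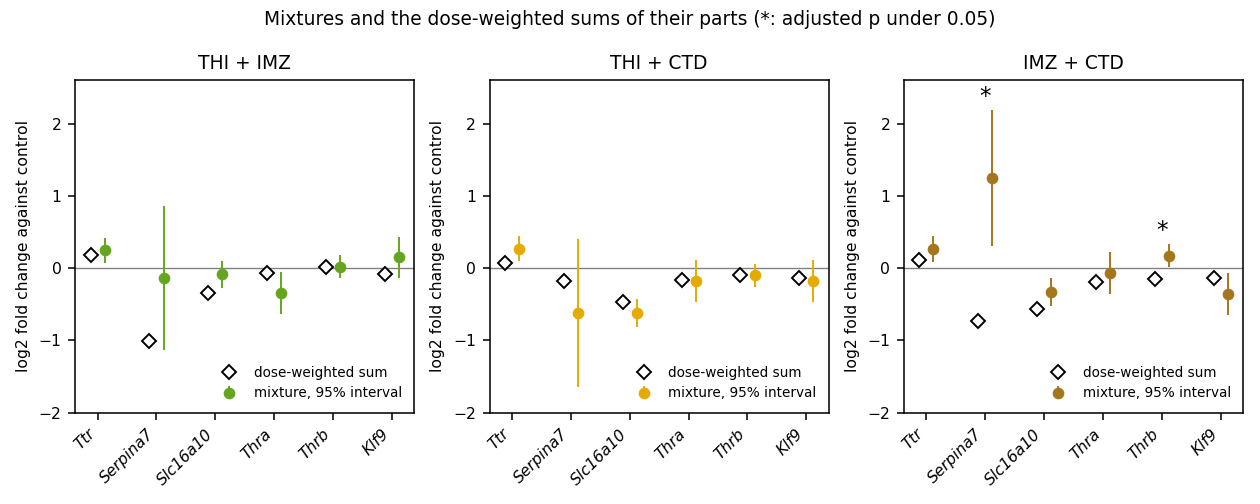
Log2 fold change against control (y axis) of each gene (x axis) in the 3 mixtures (filled points with 95% interval) beside the dose-weighted sum of the single compounds (open diamonds). Asterisks mark Serpina7 and Thrb in IMZ + CTD, the 2 differences from the sum with an adjusted p under 0.05.

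Other genes of thyroid hormone handling were read from lists of transporters, conjugation genes (with the sulfatase gene Sts), receptor partners and T3-responsive liver genes. Among 11 further transporters the number that rose was 3 in THI, 1 in IMZ, 3 in CTD, 1 in THI + IMZ, 3 in THI + CTD and 1 in IMZ + CTD, and 1 fell in CTD and in THI + CTD. Of all genes tested, 12.7% were called in CTD, 4.39% in THI + CTD and 0.251% to 1.46% in each other group. Abcc3, an efflux pump of conjugates toward blood, rose in all 6 groups, from a log2 fold change of 1.65 ± 0.23 SE in IMZ + CTD (adjusted p = 0.000164 by edgeR) to 2.82 ± 0.23 in THI + CTD (8.58e-10). Slco1a4, an uptake carrier for T4, T3 and bile acids, rose in THI (1.09 ± 0.25, 0.037), CTD (0.96 ± 0.28, 0.0197) and THI + CTD (1.02 ± 0.25, 0.0154). Abcb1a, an efflux pump, rose in THI (0.68 ± 0.17, 0.0486) and THI + CTD (0.66 ± 0.17, 0.0163), and in IMZ + CTD it lay below the dose-weighted sum (-0.70 ± 0.18, 0.0432). Slco1b3, the symbol the table uses for rat Slco1b2, rose in CTD (0.39 ± 0.09, 0.00317). Slc17a4, reported elsewhere to carry thyroid hormone, fell in CTD (-0.36 ± 0.09, 0.00658) and THI + CTD (-0.28 ± 0.08, 0.0413).

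Of 7 listed conjugation genes with a row, 2 rose in each of THI, IMZ, THI + IMZ and THI + CTD. In CTD 3 rose and 1 fell, and none was called in IMZ + CTD. The gene that fell was Sts, a sulfatase rather than a conjugating enzyme, so no conjugating enzyme was called lower against control. The UDP-glucuronosyltransferase rows named Ugt1a2 and Ugt2b17 accounted for the 2 that rose in each of 5 groups, with log2 fold changes of 0.58 to 0.85 and of 1.27 to 1.49. Ugt1a2 was the only listed Ugt1a member with a row. Whether that row also holds reads of the other Ugt1a genes was not tested. Ugt2b17, Abcc3 and Abcb1a are also among the CAR and PXR target genes counted above, so their rises are the same results. Sult1b1, a sulfotransferase that acts on thyroid hormones, rose in CTD (0.64 ± 0.10, adjusted p = 3.4e-05), and Sts, steroid sulfatase, fell there (-0.70 ± 0.13, 0.00024). Dio2, Dio3 and the other listed Ugt1a members had no row of that name and are not analysed here. Among 14 receptor partners and cofactors, 4 were called in CTD, where 12.7% of all genes tested were. None was called in the other 5 groups, where 0.251% (IMZ) to 4.39% (THI + CTD) of all genes were. Ncoa2, a co-activator of nuclear receptors (-0.61 ± 0.09, 1.38e-05), and Rxra, the dimer partner of Thrb (-0.34 ± 0.09, 0.00801), also fell. Tbl1xr1, a subunit of the NCoR co-repressor complex (0.33 ± 0.08, 0.00648), and Med1, a Mediator subunit that binds liganded receptors (0.27 ± 0.08, 0.0267), rose. Ncoa2 was also higher in THI than in CTD (0.73 ± 0.10, 2e-05) and in IMZ than in CTD (0.75 ± 0.10, 1.13e-05).

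Of 16 T3-responsive liver genes, between 0 and 2 were called in a group, where 0.251% (IMZ) to 12.7% (CTD) of all genes tested were. At an unadjusted p under 0.05 by edgeR, they numbered 6 in THI + IMZ (11.1% of all genes tested) and 6 in THI + CTD (17.6%). They numbered 2 in THI (8.68%), 1 in IMZ (8.08%), 3 in CTD (25.2%) and 2 in IMZ + CTD (12.8%). Cyp7a1, the rate-limiting enzyme of bile acid synthesis, fell in THI (-2.45 ± 0.55, adjusted p = 0.0275) and THI + IMZ (-2.90 ± 0.56, 0.00551). Me1, malic enzyme, rose in THI (1.27 ± 0.30, 0.0445), CTD (2.23 ± 0.32, 1.39e-05) and THI + CTD (2.08 ± 0.30, 7.25e-05), and Cpt1a, the carnitine palmitoyltransferase of mitochondria, rose in THI + CTD (1.21 ± 0.30, 0.0159). Thrsp (Spot 14), a lipogenic gene that responds strongly to T3, was called in none of the 6 comparisons with control. The median log2 fold change of the list lay between -0.35 (CTD) and 0.06 (THI + CTD), against -0.07 and -0.03 over all genes tested.

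**Figure D4:**
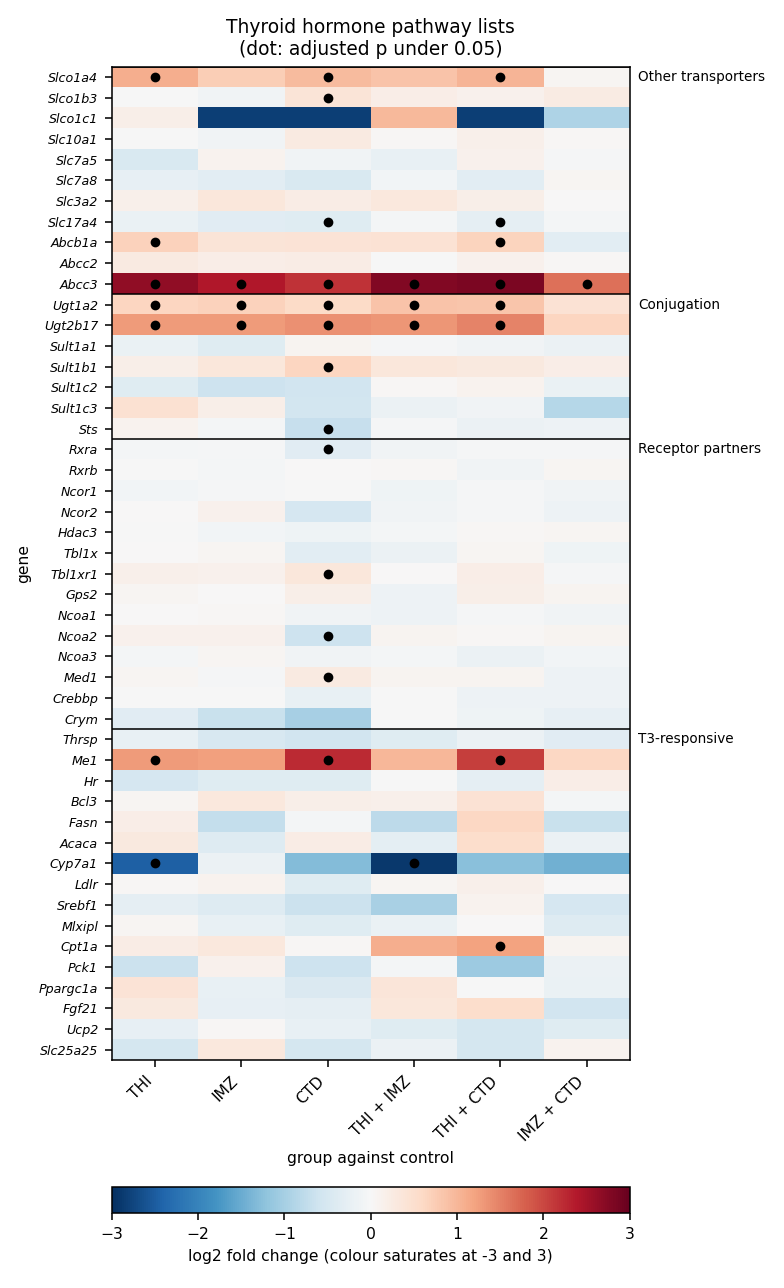
Log2 fold change against control (colour, saturating at -3 and 3) of the listed transporters, conjugation genes (with Sts), receptor partners and T3-responsive genes (rows) in the 6 treated groups (columns), with a dot where edgeR gave an adjusted p under 0.05. The row of Abcc3 carries a dot in all 6 columns, and the receptor partners carry dots in the CTD column only, 4 in number.

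Across the 31 rats, of 15 pairs of members, Slc16a10 and Thrb had the highest Pearson correlation of log2 CPM (r = 0.50, Spearman rho = 0.43), and it was 0.37 for deviations from the group means. For the deviations that pair was not the highest: Serpina7 and Thra were at 0.45 and Ttr and Thra at 0.38. Serpina7 and Thrb were at 0.08 over all rats and at -0.43 for the deviations. Among 10969 genes with a mean log2 CPM above 0, those most like Slc16a10 were Hgfac (r = 0.86, rho = 0.85), F2, prothrombin (0.84, 0.82), and Lrp1 (0.83, 0.84). These values include the differences between groups, and for deviations from the group means they were 0.50, 0.60 and 0.56. Those most like Thrb were Taz (0.72), Etl4 (0.69) and Tpra1 (0.68), and those most like Thra were Ndor1 (0.80), rnf141 (0.74) and Alpk1 (0.73). Evi5, Lztfl1 and RPL26 were closest to Serpina7 (each 0.72), Chic2 (0.68), Lrig1 (0.66) and Klf13 (0.62) to Klf9, and Synpo (0.76), Amotl2 (0.73) and Ces2j (0.72) to Ttr. These are descriptions over rats that differ in dose group and library depth, and the lists depended on the rats used. Ranked over the 8 controls alone, none of the 3 closest genes stayed the same for any member.

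**Figure D5:**
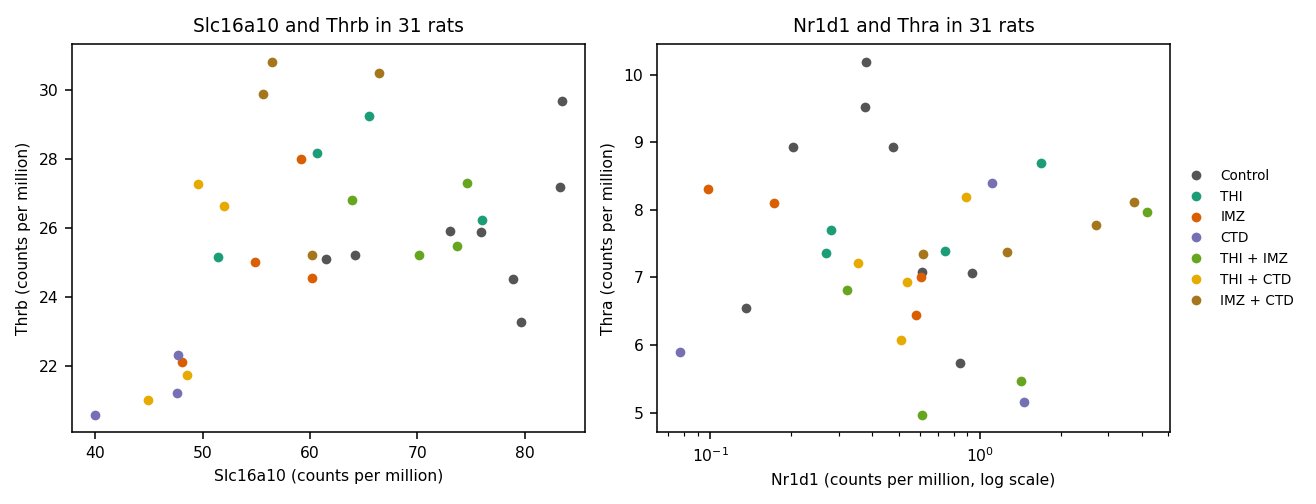
CPM in each of the 31 rats (points, coloured by group) for Thrb against Slc16a10 (left) and for Thra against Nr1d1 on a log axis (right). The 3 CTD rats sit at the low end of both Slc16a10 and Thrb, and Nr1d1 spans 0.0775 to 4.16 CPM.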

How the data were processed

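RNA was isolated from frozen liver and sequenced as stranded total RNA libraries. The authors trimmed adapters with Skewer, checked quality with FastQC 0.11.5 and aligned reads with STAR 2.5.2b to Rnor_5.0; the annotation release and strand setting are not given in the sources used here. They deposited raw read counts per gene, and a signal table of counts divided by DESeq2 1.15.1 size factors for 19904 genes, which the counts reproduced to a relative deviation of 5.0e-15. Groups were taken from the sample titles.

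Deposited counts with a sum of at least 2 over all libraries were fitted with edgeR 4.0.16 (R 4.3.3): TMM scaling, a mean for each of 7 groups, and the quasi-likelihood test in 12 comparisons, with Benjamini-Hochberg adjustment over 19904 genes. CPM values are per M (1000000) TMM-scaled counts. SE was obtained from the log2 fold change and the square root of its F statistic. The fits were tested on simulated data. Alternatives were DESeq2 1.42.0 (size factors within edgeR, and its Wald test), filterByExpr, no filter, only the groups compared, the replicate number as a block, thinned counts, exact dose ratios and leaving out each rat.

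The genes and lists were chosen with earlier results of these data known. Named from each list were the genes past the threshold, by adjusted p and at most 4 per list and comparison, and for each member the 3 genes with the highest Pearson correlation. Thrsp was named after its values were seen, as were direct comparisons of listed genes. 1 listed gene is not reported here. G6pc was left out because its older symbol is ambiguous, and listed genes without a row are not used here. Rats of 1 group differed by more than sampling noise, so each counted as 1 replicate. Total counts of 31.8 to 101 M per library set the precision, and Thra, Serpina7 and Nr1d1 rest on the fewest counts.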

Additional observations from a re-analysis of the deposited data

Results flagged for a closer look

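Among 36 sets of rats (6 genes in the 6 groups of at least 4 rats), 1 held a rat apart from the others by Dixon's criterion on log2 CPM. This was IMZ + CTD replicate 3 for Thrb, at 25.2 CPM beside 29.9 to 30.8 CPM, with a gap of 0.847 of the range of the group. Chance flags about 1 in 20 such sets.

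The effects of THI and CTD differed by a direct test for Slc16a10 (log2 difference 0.49) and for Thrb (0.35), both higher in THI, with adjusted p of 0.00753 and 0.0266 by edgeR.

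For Serpina7, all IMZ + CTD rats lay above the control median while all IMZ rats and all THI rats lay below it. The mean log2 CPM of IMZ + CTD was 2.67 above that of IMZ and 1.62 above that of THI. These 2 differences were not tested.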

How the results depend on the processing

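Of 2754 refitted log2 fold changes of the members, 2649 kept their direction and side of the threshold, 44 lost a call, 13 gained one and 48, from 17 pairs of gene and comparison, changed sign. No called value changed sign. In the number of members called, DESeq2's Wald test gave 2 in IMZ + CTD against control and 2 in THI + CTD against control. filterByExpr gave 2 in THI + CTD against control, thinned counts gave 1 in THI against CTD, and fits of only the groups compared gave 0 in IMZ against control and 0 in THI against CTD. Over the fits that left out 1 rat the number was 1 to 2 in CTD against control, 0 to 1 in IMZ + CTD against control, 0 to 2 against the sum for IMZ + CTD, 0 to 1 in IMZ against control, 0 to 1 in IMZ against CTD, 1 to 2 in THI + CTD against control and 0 to 2 in THI against CTD. DESeq2's size factors, no filter and exact dose ratios moved none of these numbers.

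Same-numbered rats of different groups had a median r of 0.033 between their deviations (78 pairs, r from -0.28 to 0.40, 16 over 0.1). For rats with different numbers it was -0.006 (326 pairs, r from -0.37 to 0.44, 51 over 0.1). Whether the replicate numbers pair the rats was not tested. With the replicate block, 1 member was called in CTD against control, 0 in IMZ against control, 1 in THI against CTD and 1 for IMZ + CTD against its sum. The block ended the call of Slc16a10 in IMZ (adjusted p = 0.436 by edgeR). For Thrb it ended the calls in CTD (0.159), in THI against CTD (0.0526) and for IMZ + CTD against its sum (0.0595). The signs of Klf9 in THI (0.053) and IMZ (0.051) and of Serpina7 in THI + IMZ (0.15) turned with the replicate block. Replicate numbers 5 to 8 occur only among the controls, so in that fit these controls added nothing to the comparisons. The effect of the block and that of fewer controls cannot be told apart there.

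The other changes of sign were in values near 0 beside their error. Thinned counts gave -0.0059 for Thrb in THI + IMZ and -0.034 for Klf9 in THI against IMZ. No filter and only the groups compared gave 0.00015 and 0.00014 for Thrb in THI + CTD against its sum. Leaving out 1 rat moved Klf9 from -0.11 to 0.028 (THI + CTD against its sum), -0.15 to 0.042 (THI) and -0.072 to 0.12 (THI against IMZ). It moved Serpina7 from -0.99 to 0.59 (CTD), -1.24 to 0.074 (THI + CTD against its sum), -0.52 to 0.046 (THI + IMZ) and -1.05 to 0.53 (THI against CTD). Thra went from -0.084 to 0.099 (THI + CTD against its sum), -0.10 to 0.011 (THI) and -0.0054 to 0.12 (THI against IMZ). Thrb went from -0.11 to 0.0031 (IMZ), -0.068 to 0.054 (THI + CTD against its sum), -0.00081 to 0.053 (THI + IMZ) and -0.015 to 0.039 (THI + IMZ against its sum). Ttr went from -0.077 to 0.11 (CTD) and -0.017 to 0.10 (THI + IMZ against its sum). The cause of these changes was not tested. Thinning all libraries to the smallest total, the check of depth, ended 1 call, that of Thrb in THI against CTD.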
